A study of Mus musculus with 27 samples.

Results

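Iron handling and ferroptosis were followed through the transcripts of 10 genes, which are 10 of the 22340 rows of a count table from mouse cortex after a transient stroke. The rows were taken by gene symbol alone, and no measured value enters the rule, although the genes were chosen with earlier results of these data known. All 10 genes had a row and all 10 passed the filter on low counts, with 91 to 12029 counts per gene and library. They cover iron uptake (Tfrc, Trf and Slc11a2), storage and release from storage (Fth1, Ftl1 and Ncoa4), export (Slc40a1 and Cp) and the lipid peroxidation that defines ferroptosis (Gpx4 and Acsl4).

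Total RNA depleted of ribosomal RNA was sequenced from dissected cortex of wild-type C57BL6 mice aged 7 to 8 weeks. In the stroke animals a suture closed the right middle cerebral artery for 35 min under isoflurane, and cortex of the ipsilateral (occluded) or the contralateral hemisphere was taken after 3, 6, 12 or 24 h of reperfusion. Sham animals were anaesthetized likewise and had their arteries exposed, with no filament inserted. The 27 libraries therefore form 9 groups of 3, namely ipsilateral cortex at 3, 6, 12 and 24 h, contralateral cortex at the same times, and sham cortex. No group carries an engineered allele or received a drug. Stroke animals entered the study only if blood flow had dropped and then recovered, so the groups hold successful occlusions. Libraries that share a replicate number come from 1 day of surgery. The labels do not say whether the hemispheres of a pair belong to 1 animal, which hemisphere the sham tissue is from, or when after surgery it was taken. Ipsilateral cortex was set against contralateral cortex at each time to ask what occlusion and reperfusion do locally, and both were set against sham cortex. These comparisons share libraries and are not independent of each other.

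Iron enters most cells as transferrin (Trf) bound to transferrin receptor 1 (Tfrc), and Slc11a2, the divalent metal transporter DMT1, moves ferrous iron into the cytosol. There it is used, stored in the ferritin shell of heavy (Fth1) and light (Ftl1) chains, or exported by ferroportin (Slc40a1) with the help of the ferroxidase ceruloplasmin (Cp). Iron regulatory proteins adjust this flow by binding hairpins called iron-responsive elements: a hairpin in the 5′ untranslated region blocks translation when iron is scarce, and hairpins in the 3′ untranslated region of Tfrc protect its mRNA from decay. Transcript counts show the second kind of control and are blind to the first. Free ferrous iron drives the peroxidation of polyunsaturated phospholipids, and ferroptosis is the form of cell death that follows when the selenoenzyme Gpx4 does not remove the lipid peroxides. Acsl4, an acyl-CoA synthetase, prepares polyunsaturated fatty acids for these phospholipids.

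A search of the annotated untranslated regions for the element found a match in 4 of the 10 genes. These sites are shown because control of translation is tied to the 5′ region and control of Tfrc mRNA decay to the 3′ region. The motif, 17 bases read on the transcript strand, was a C, a stem of 5 bases (NNNNN), the loop CAGTGN and 5 bases (NNNNN) able to pair with the stem. G-T pairs were allowed, the last loop base was not G, and the other strand was not searched because the element is an RNA hairpin. Sequences are from GENCODE release M21 transcripts on mm10, written 5′ to 3′ as DNA, and capitals mark the CAGTGN loop. Tfrc has 4 sites in its 3′ untranslated region (chr16, plus strand), and the other 3 genes have 1 each in the 5′ untranslated region.
Tfrc, chr16:32631225-32631241: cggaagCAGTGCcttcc
Tfrc, chr16:32631604-32631620: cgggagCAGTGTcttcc
Tfrc, chr16:32631669-32631685: cggagaCAGTGAtctcc
Tfrc, chr16:32631716-32631732: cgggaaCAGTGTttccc
Fth1, chr19:9982738-9982754, plus strand: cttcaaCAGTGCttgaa
Ftl1, chr7:45459785-45459801, minus strand: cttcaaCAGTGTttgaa
Slc40a1, chr1:45925471-45925487, minus strand: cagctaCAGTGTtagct
The same motif was found in the 5′ untranslated region of 23 of 20580 genes searched (0.112%) and in the 3′ untranslated region of 100 of 20962 (0.477%). The remaining 6 genes had no match, which says only that these letters with this pairing are not in their annotated regions. It does not show that these genes, Slc11a2 among them, lack an element of another form. A match is a description of the sequence and was not tested for binding.

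The 10 genes gave calls at 24 h and none at the earlier times. In ipsilateral against contralateral cortex at 24 h Ftl1, Trf and Cp rose and Gpx4 fell, by edgeR's quasi-likelihood test with Benjamini-Hochberg adjustment over all 18087 genes tested and a threshold of 0.05. These 4 of the 10 genes stand beside 19.1% of all tested genes called at that time (9.74% higher and 9.36% lower). At 3, 6 and 12 h none of the 10 passed, where 0.249%, 7.99% and 12.2% of all genes did. At these times 3, 1 and 3 of the 10 had an unadjusted p under 0.05, beside 1939, 4040 and 4789 of all genes. DESeq2 called 0, 0 and 1 at these times, the 1 being Ftl1, beside 133, 1833 and 2665 of all genes. The median log2 fold change of the 10 genes was 0.03, 0.03, -0.16 and 0.12 at 3, 6, 12 and 24 h, beside 0.00, -0.02, -0.01 and 0.03 over all tested genes.

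Against sham cortex the ipsilateral side gave 4 calls at 24 h as well, with Ftl1, Cp and Fth1 higher and Gpx4 lower, where 22.2% of all genes were called (11.3% higher and 10.9% lower). None of the 10 was called at 3, 6 or 12 h against sham, where 0.243%, 6.11% and 10.3% of all genes were. An unadjusted p under 0.05 was found for 0, 0 and 2 of the 10, beside 1551, 3753 and 4506 of all genes. DESeq2 called 0, 0 and 1 of the 10, beside 173, 1523 and 2293 of all genes. In contralateral against sham cortex none of the 10 genes passed the same test at any of the 4 times. All genes gave 0.0111%, 0.0332%, 0.238% and 0.111% there. An unadjusted p under 0.05 was found for 3, 0, 1 and 0 of the 10, beside 1563, 778, 1348 and 1171 of all genes. DESeq2 gave a count of 0 at each of these times too, beside 34, 22, 145 and 64 of all genes.

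**Figure D1:**
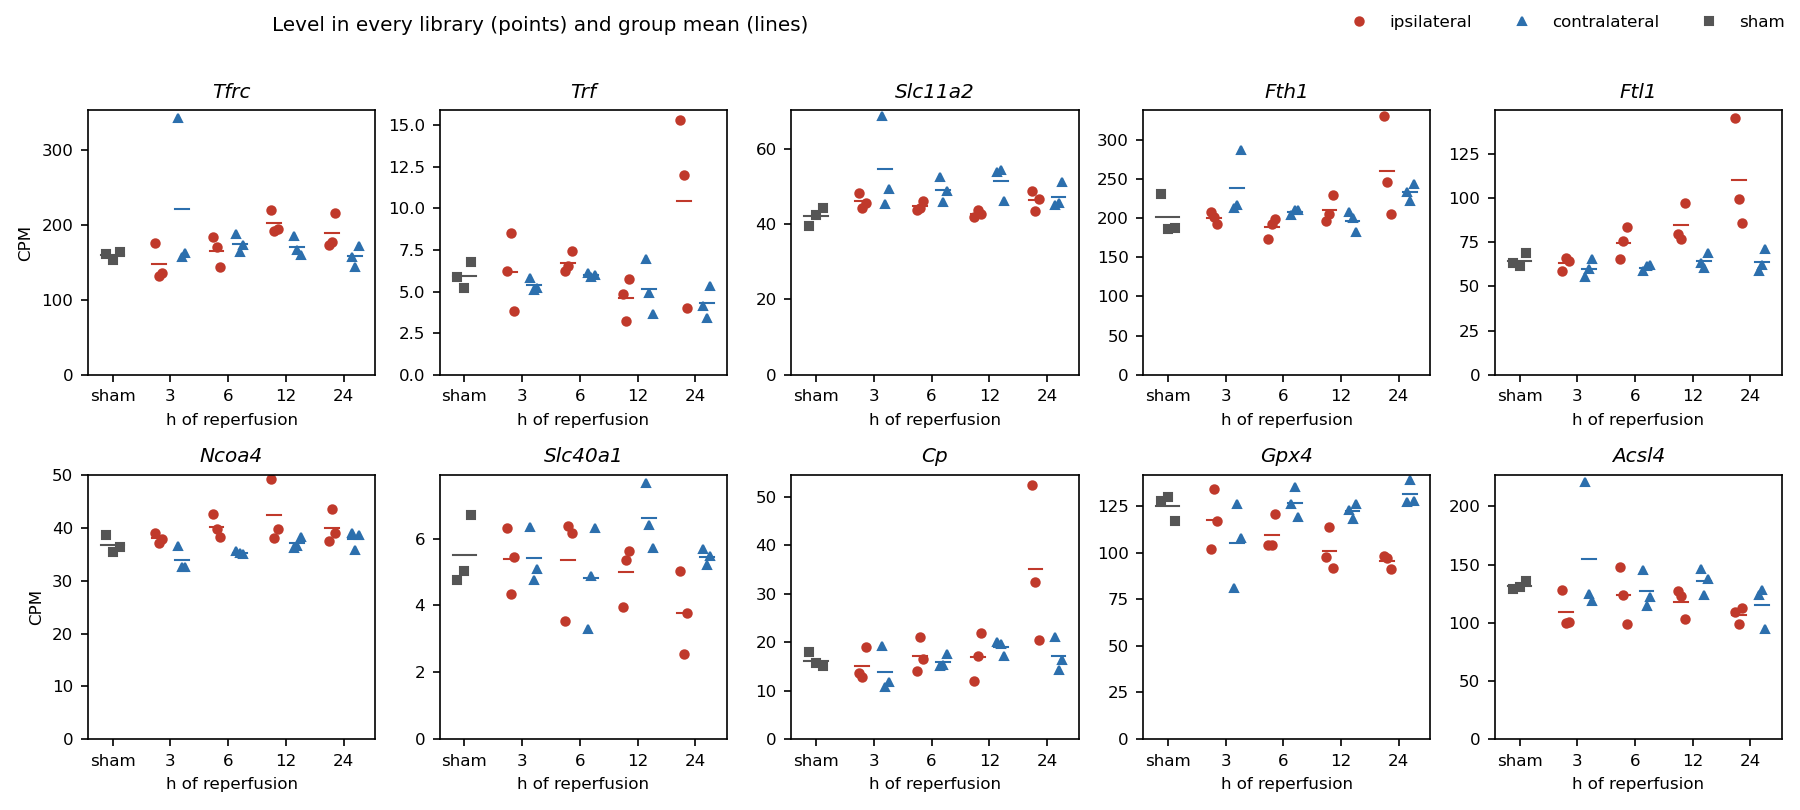
Level of each gene (CPM, linear axes from 0) in each of the 27 libraries against hours of reperfusion, with sham cortex at the left end; circles are ipsilateral, triangles contralateral and squares sham libraries, and short lines are group means of 3. At 24 h the ipsilateral circles of Ftl1 lie above and those of Gpx4 below the contralateral triangles, while for Trf and Cp 1 ipsilateral library lies within the contralateral range.

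Levels are given as CPM, the usual depth-scaled unit of counts, here relative to all tested genes and after TMM normalization. Total counts per library ran from 26505996 to 48830897. Of 2 libraries that stand apart, replicate 1 of contralateral cortex at 3 h had GC-rich genes 1.02 log2 units lower relative to GC-poor genes than the average library (recorded as -1.02, against -0.236 to 0.369 in the other 26). In that library Tfrc, Acsl4 and Slc11a2 reached their highest level of all 27, and Gpx4 and Ftl1 their lowest. The other, replicate 1 of ipsilateral cortex at 24 h, had 40.4% of its counts in mitochondrial ribosomal RNA, against 24.4 to 36.7% elsewhere, and the highest level of Fth1, Ftl1, Cp and Trf. Without both libraries, 3 of the 10 genes were called in ipsilateral against contralateral cortex at 24 h (Ftl1, Gpx4 and, in place of Trf and Cp, Slc40a1). Over all genes 3812 were called there, beside 3455 with these libraries kept. Cortical neuron markers were present throughout, summing to 3499 to 5662 CPM for 10 genes. Markers of neighbouring tissue were present too, with 4.34 to 753 CPM for 10 choroid plexus genes and 316 to 986 CPM for 11 striatal neuron genes. In cortex measured in bulk, fewer cells of a type and less RNA per cell cannot be told apart.

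Per kilobase of the principal transcript, the 2 ferritin chains and Gpx4 were the most abundant of the 10 transcripts in sham cortex. Fth1 averaged 135 ± 16.8 CPM per kb (SD, n = 3), Gpx4 130 ± 7.52 and Ftl1 66.5 ± 3.89. Tfrc followed with 32.6 ± 1.14, Acsl4 with 25 ± 0.732, Slc11a2 with 13.9 ± 0.794 and Ncoa4 with 9.07 ± 0.408 CPM per kb. Cp (4.02 ± 0.363), Trf (2.31 ± 0.307) and Slc40a1 (1.63 ± 0.314) had the lowest values. That of Trf is uncertain, because 63.5% of its exonic bases are shared with the gene Gm20425 on the same strand. Reads there may be missing from its count, which was divided by the full transcript length. In the order of these values only the neighbours Fth1 and Gpx4 overlapped, with 125 to 154 against 122 to 136 CPM per kb. Over all 27 libraries Cp and Trf varied most, with coefficients of variation of 43.5% and 41.9%, and Ncoa4 least with 8.81%.

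**Figure D2:**
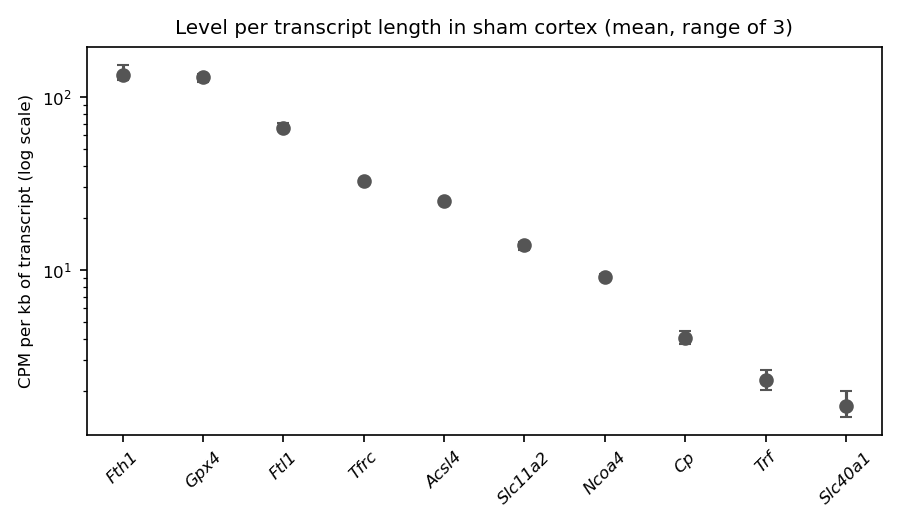
Mean level in the 3 sham libraries (points) with their range (bars), in CPM per kilobase of the principal transcript on a log axis, ordered from high to low. The levels run from 135 for Fth1 to 1.63 CPM per kb for Slc40a1, and the ranges of Fth1 and Gpx4 overlap. The place of Trf is uncertain, because its exons overlap those of Gm20425.

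Among the uptake genes, the receptor Tfrc (mm10, chromosome 16, 32608920 to 32632794, plus strand) did not pass the test at any time. At 24 h it had 173, 177 and 215 CPM in ipsilateral cortex, against 157, 144 and 172 CPM in contralateral cortex and 161, 153 and 164 CPM in sham cortex. All 3 ipsilateral libraries lay above all contralateral and all sham libraries. The log2 fold change against contralateral cortex was 0.26 ± 0.19 (SE; adjusted p = 0.369). At 12 h it had 220, 191 and 194 CPM ipsilaterally and 185, 166 and 159 CPM contralaterally, again without overlap (0.25 ± 0.19, adjusted p = 0.454). At 3 h the order was turned round, with 175, 131 and 135 CPM ipsilaterally and 342, 157 and 162 CPM contralaterally. The value of 342 is the contralateral library that stands apart, and the 2 others overlap the ipsilateral range. The difference at 3 h was -0.59 ± 0.19 (adjusted p = 0.239) with that library and -0.12 ± 0.12 (adjusted p = 0.858) without it, and it passed (-0.76, adjusted p = 0.0461) only without contralateral replicate 2.

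The call on the change of the Tfrc effect between 3 and 24 h depended on the setting. The effect was higher at 24 h than at 3 h by 0.84 ± 0.27 on the log2 scale (adjusted p = 0.074). With the surgery day as a replicate block it was 0.82 ± 0.23 (adjusted p = 0.0393), and without contralateral replicate 1 at 3 h it was 0.38 ± 0.16 (adjusted p = 0.207). It passed without contralateral replicate 2 (1.01, adjusted p = 0.0188) or replicate 3 (0.99, adjusted p = 0.0286) at 3 h and with DESeq2 (adjusted p = 0.0363).

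Trf (chromosome 9, 103204001 to 103230444, minus strand), whose brain mRNA is known mainly from oligodendrocytes and choroid plexus, had a low count level until 12 h. Its 24 libraries outside ipsilateral cortex at 24 h lay between 3.24 and 8.54 CPM. At 24 h it had 15.3, 12 and 4.01 CPM in ipsilateral cortex, against 4.14, 3.4 and 5.32 CPM in contralateral cortex and 5.88, 5.19 and 6.77 CPM in sham cortex. Ipsilateral replicates 1 and 2 stood above every other library of the study, while replicate 3 lay inside the contralateral range and below the sham range. The fitted rise over contralateral cortex was 2.42-fold (log2 fold change 1.28 ± 0.33, SE; adjusted p = 0.00898). Against sham cortex the log2 difference was 0.81 ± 0.33 (adjusted p = 0.0799), and it passed without ipsilateral replicate 3 (1.20, adjusted p = 0.00173) and with DESeq2 (0.82, adjusted p = 0.0406). Without ipsilateral replicate 1 it was 0.42 (adjusted p = 0.406), and without both libraries that stand apart 0.42 (adjusted p = 0.419). The call against contralateral cortex was lost without ipsilateral replicate 1 (0.89, adjusted p = 0.0745), without contralateral replicate 2 (1.13, adjusted p = 0.0525) and when only the compared groups were fitted (1.28, adjusted p = 0.12).

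Of the Trf exonic bases 63.5% are shared with the gene Gm20425 on the same strand, which received 4 counts over all 27 libraries. How shared reads were divided between the pair or left uncounted is uncertain, and Trf levels may be too low. Of 12 oligodendrocyte markers 1 rose over contralateral and 3 fell against sham cortex at 24 h. Their sums were 1401, 1319 and 1090 CPM ipsilaterally and 1237, 1228 and 1548 CPM contralaterally. Within each side these sums had the order of the Trf levels, while the highest sum, of contralateral replicate 3, went with 5.32 CPM of Trf. Of 10 choroid plexus markers none passed the test at 24 h, and their sums were 16.3, 12.8 and 7.07 CPM ipsilaterally against 196, 7.82 and 4.97 CPM contralaterally. The library with the most choroid plexus RNA at 24 h, contralateral replicate 1, had a Trf level of 4.14 CPM, a value of 1 library. Of all 27 libraries, ipsilateral replicate 2 at 3 h had the highest oligodendrocyte sum (1975 CPM) and 8.54 CPM of Trf. The part of oligodendrocytes and choroid plexus in the Trf change was not tested.

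Slc11a2 (chromosome 15, 100387898 to 100425072, minus strand) was lower in ipsilateral than in contralateral cortex averaged over the 4 times. Its ipsilateral against sham differences were 0.13, 0.09, 0.02 and 0.14 at 3, 6, 12 and 24 h, with overlapping libraries and adjusted p from 0.426 to 0.936. Its levels at 12 h were 41.9, 43.6 and 42.6 CPM ipsilaterally, 53.8, 54.3 and 46 CPM contralaterally, and 39.5, 42.3 and 44.3 CPM in sham cortex. The ipsilateral libraries were below all contralateral libraries and overlapped the sham libraries. The difference at 12 h did not pass (-0.27 ± 0.12, adjusted p = 0.14), and neither did that at 24 h (-0.03 ± 0.12, adjusted p = 0.885). The mean of the 4 effects was -0.17 ± 0.06 (adjusted p = 0.027), where 33% of all genes were called by that test. This call was lost without contralateral replicate 1 at 3 h (-0.11, adjusted p = 0.0511), without contralateral replicate 1 at 6 h (-0.16, adjusted p = 0.0525) and without contralateral replicate 2 at 12 h (-0.16, adjusted p = 0.0509). All 3 contralateral libraries of each time lay above all sham libraries for Slc11a2, with log2 differences of 0.37, 0.22, 0.29 and 0.17 at 3, 6, 12 and 24 h and adjusted p from 0.36 to 1. Groups without overlap were found for 11.2%, 15.4%, 17.1% and 14.6% of all genes in these 4 comparisons.

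Among the storage genes, Ftl1 (chromosome 7, 45457944 to 45459884, minus strand) was called at 24 h in both comparisons. It had 145, 99.1 and 85.8 CPM in ipsilateral cortex at 24 h, against 58.4, 62 and 70.8 CPM in contralateral cortex and 62.9, 61.5 and 68.6 CPM in sham cortex. The lowest ipsilateral library lay above every sham and contralateral library of the whole series, whose highest value was 70.8 CPM. The rise over contralateral cortex was 1.73-fold (log2 fold change 0.79 ± 0.14, SE; adjusted p = 0.000317), and that over sham cortex 1.71-fold (0.77 ± 0.14, adjusted p = 0.000294). Leaving out each library of the compared groups in turn ended neither call. Without ipsilateral replicate 1 the values were 0.53 (adjusted p = 0.00584) and 0.52 (adjusted p = 0.00535).

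The separation of Ftl1 was visible earlier, without a call. At 6 h it had 65.2, 75.4 and 83.5 CPM ipsilaterally against 58.7, 61.2 and 61.8 CPM contralaterally. At 12 h it had 79.3, 76.7 and 97.1 CPM ipsilaterally against 63.4, 60.5 and 68.9 CPM contralaterally. The groups did not overlap at either time. The differences were 0.30 ± 0.14 (adjusted p = 0.193) and 0.39 ± 0.14 (adjusted p = 0.0635). The 12 h difference passed with DESeq2 (adjusted p = 0.0394), with only the compared groups (adjusted p = 0.0213) and without the 2 libraries that stand apart (adjusted p = 0.0072), and without those 2 the 6 h difference passed as well (adjusted p = 0.0478). At 3 h the 3 ipsilateral libraries (58.4, 66.2 and 64.2 CPM) overlapped the contralateral ones (55.2, 59.5 and 65.3 CPM). Averaged over the 4 times the effect was 0.39 ± 0.07 (adjusted p = 9.91e-05).

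Fth1 (chromosome 19, 9980598 to 9985098, plus strand), the chain with ferroxidase activity, moved less. It had 330, 246 and 205 CPM in ipsilateral cortex at 24 h, against 234, 222 and 244 CPM in contralateral cortex and 231, 186 and 188 CPM in sham cortex. Ipsilateral replicate 1 was far above the rest, replicate 2 was just above the contralateral and sham ranges, and replicate 3 lay below the contralateral range and inside the sham range. The difference from contralateral cortex did not pass (0.16 ± 0.13, adjusted p = 0.426), and without ipsilateral replicate 1 it was -0.06. That from sham cortex did (0.37 ± 0.13, adjusted p = 0.0416), and it was lost without ipsilateral replicate 1 (0.16, adjusted p = 0.395), without ipsilateral replicate 2 (0.40, adjusted p = 0.0598), without sham replicate 2 (0.32, adjusted p = 0.16), without sham replicate 3 (0.32, adjusted p = 0.139) and with only the compared groups (0.38, adjusted p = 0.128). At 3 and 6 h all ipsilateral libraries lay below all contralateral ones, at 193 to 208 against 213 to 287 CPM and at 173 to 199 against 204 to 211 CPM. Neither difference passed (adjusted p = 0.506 and 0.551).

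The ratio of Ftl1 to Fth1 counts within a library needs no scaling between libraries. It was looked at after the levels had been seen. At 24 h it was 0.439, 0.402 and 0.418 in ipsilateral cortex, against 0.249, 0.279 and 0.29 in contralateral cortex. The 3 ipsilateral ratios were close together even though the level of Ftl1 differed widely between the same libraries. At 6 h the ratio was 0.377, 0.391 and 0.421 ipsilaterally and 0.288, 0.291 and 0.294 contralaterally, and at 3 h 0.28, 0.329 and 0.333 ipsilaterally and 0.259, 0.275 and 0.228 contralaterally. The groups did not overlap at 3, 6 and 24 h, and they overlapped at 12 h, with 0.402, 0.374 and 0.423 ipsilaterally and 0.305, 0.303 and 0.378 contralaterally. Sham ratios were 0.273, 0.33 and 0.365, below all ipsilateral ratios at 6, 12 and 24 h.

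An exact two-sided permutation test on the ratio gave p = 0.1 at 3, 6 and 24 h and p = 0.2 at 12 h for ipsilateral against contralateral cortex, with 0.2 and 0.3 after Benjamini-Hochberg adjustment over 12 comparisons. The smallest p that 3 libraries against 3 allow is 0.1, so this test cannot pass the threshold. The mean difference at 24 h was 0.147, with means of 0.42 ± 0.0186 ipsilaterally and 0.273 ± 0.0212 contralaterally (SD, n = 3 each). A ratio shows unequal change and does not say which chain moved. Ftl1 is GC-richer than Fth1 (58.1% and 50% of the longest transcript). Of 2 annotated pseudogenes named after each chain, only 1, of Fth1, has a row, with 544 counts over 27 libraries, and how reads that match a pseudogene were counted is not given in the sources used here. Ftl1 also shares 26.5% of its exonic bases with Gm10252 on the opposite strand, which has no row, and the strand setting of the counting is not given either.

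**Figure D3:**
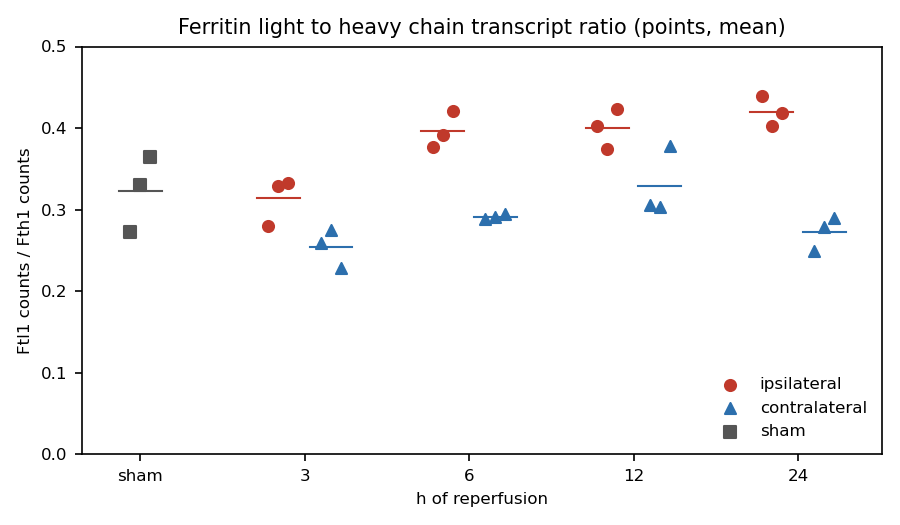
Counts of Ftl1 divided by counts of Fth1 in each library against hours of reperfusion, with sham cortex at the left end; circles are ipsilateral, triangles contralateral and squares sham libraries, and lines are means of 3. Ipsilateral ratios at 24 h (0.402 to 0.439) lie above the contralateral ones (0.249 to 0.29), and the sides overlap only at 12 h.

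Ncoa4 (chromosome 14, 32159865 to 32179855, plus strand), the receptor that carries ferritin to lysosomes for iron release, was slightly higher in ipsilateral than in contralateral cortex over the time course. It had 42.7, 39.8 and 38.4 CPM ipsilaterally at 6 h against 35.7, 35.3 and 35 CPM contralaterally, and 39.1, 37.2 and 38 CPM ipsilaterally at 3 h against 36.7, 32.7 and 32.6 CPM contralaterally. The sides did not overlap at these 2 times, and they overlapped at 12 and 24 h. No single time passed, with differences of 0.08 to 0.19 on the log2 scale and adjusted p from 0.227 to 0.627. The mean effect did, at 0.16 ± 0.05 (1.11-fold, adjusted p = 0.0176). Ipsilateral libraries overlapped the sham libraries (38.7, 35.4 and 36.5 CPM) at all 4 times, with differences of 0.05, 0.13, 0.20 and 0.12 and adjusted p from 0.212 to 0.958.

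Of the export genes, Cp (chromosome 3, 19957054 to 20009145, plus strand) rose at 24 h. Ceruloplasmin, known in brain as a membrane-anchored protein of astrocytes, had 52.5, 32.5 and 20.4 CPM in ipsilateral cortex at 24 h, against 21.1, 14.2 and 16.3 CPM in contralateral cortex and 17.9, 15.7 and 15 CPM in sham cortex. All 3 ipsilateral libraries lay above all sham libraries, while replicate 3 fell inside the contralateral range. The rise was 2.04-fold over contralateral cortex (log2 fold change 1.03 ± 0.27, SE; adjusted p = 0.0109) and 2.16-fold over sham cortex (1.11 ± 0.27, adjusted p = 0.00585). The first call was lost without ipsilateral replicate 1 (0.61, adjusted p = 0.0959), without contralateral replicate 2 (0.90, adjusted p = 0.0573) and with only the compared groups (1.03, adjusted p = 0.0971). Without ipsilateral replicate 1 the difference from sham was 0.70 (adjusted p = 0.0496), and with only the compared groups it was 1.12 (adjusted p = 0.0657). At 3, 6 and 12 h the Cp differences from contralateral cortex were 0.12, 0.11 and -0.17, with overlapping libraries each time.

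Slc40a1 (chromosome 1, 45908068 to 45926523, minus strand), the ferroportin gene, pointed the other way at 24 h. It had 5.03, 2.54 and 3.77 CPM in ipsilateral cortex, against 5.69, 5.22 and 5.48 CPM in contralateral cortex and 4.75, 5.03 and 6.71 CPM in sham cortex. All ipsilateral libraries were below all contralateral libraries and overlapped the sham libraries only through replicate 1. The difference was -0.53 ± 0.25 (adjusted p = 0.131). Without ipsilateral replicate 1 it was -0.79 ± 0.27 and passed (adjusted p = 0.0454), and the difference from sham then passed as well (-0.80, adjusted p = 0.0402). Without ipsilateral replicate 2 the differences were -0.33 from contralateral (adjusted p = 0.422) and -0.33 from sham cortex (adjusted p = 0.402), and without sham replicate 3 that from sham was -0.37 (adjusted p = 0.358). At 12 h the sides were likewise separate, at 3.96 to 5.64 against 5.73 to 7.66 CPM (-0.41 ± 0.24, adjusted p = 0.306).

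Gpx4 (chromosome 10, 80047166 to 80056439, plus strand) fell at 24 h. It had 98.4, 97 and 91.2 CPM in ipsilateral cortex, against 127, 139 and 128 CPM in contralateral cortex and 128, 130 and 117 CPM in sham cortex. The 3 ipsilateral libraries were close together and below all libraries of both other groups. The level was 1.37-fold lower than in contralateral cortex (log2 fold change -0.46 ± 0.12, SE; adjusted p = 0.00998) and 1.31-fold lower than in sham cortex (-0.39 ± 0.12, adjusted p = 0.0244). With each library of the compared groups left out in turn the call against contralateral cortex held, with adjusted p from 0.02 to 0.0463. The call against sham was lost without sham replicate 1, sham replicate 2, ipsilateral replicate 2 or ipsilateral replicate 3, with values from -0.41 to -0.35 and adjusted p from 0.0512 to 0.0897. Gpx4 is GC-rich (60.2% of the longest transcript), and its 1 annotated pseudogene has no row. GC-rich relative to GC-poor genes stood at -0.208, -0.021 and -0.198 ipsilaterally at 24 h. The values were -0.124, 0.0717 and 0.142 contralaterally and 0.0307 to 0.058 in sham cortex. Ftl1, with 58.1% GC, rose in the same libraries. The part of GC content in the fall of Gpx4 was not tested.

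At 12 h Gpx4 was also below every contralateral and sham library, with 97.6, 114 and 91.9 CPM ipsilaterally against 123, 118 and 126 CPM contralaterally, but the difference of -0.27 ± 0.12 did not pass (adjusted p = 0.149). At 3 h the ipsilateral libraries (102, 134 and 117 CPM) overlapped the contralateral ones (81.3, 126 and 108 CPM). Averaged over the 4 times the effect was -0.19 ± 0.06 (adjusted p = 0.0166).

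Acsl4 (chromosome X, 142317993 to 142390535, minus strand) did not pass at any time. It had 109, 98.5 and 113 CPM in ipsilateral cortex at 24 h, against 124, 128 and 94.8 CPM in contralateral cortex and 129, 131 and 136 CPM in sham cortex. The ipsilateral libraries lay below all sham libraries and overlapped the contralateral ones. The differences were -0.11 ± 0.18 from contralateral (adjusted p = 0.701) and -0.31 ± 0.18 from sham cortex (adjusted p = 0.216). At 3 h the difference from contralateral cortex was -0.50 ± 0.18 (adjusted p = 0.287), and -0.15 ± 0.14 (adjusted p = 0.844) without contralateral replicate 1, whose level of 221 CPM was the highest of all. The mean effect over the 4 times was -0.22 ± 0.09 (adjusted p = 0.0592), and with the surgery day as a replicate block it was -0.21 ± 0.07 and passed (adjusted p = 0.0213). Without contralateral replicate 1 at 3 h it was -0.12 (adjusted p = 0.145), and without both libraries that stand apart -0.13 (adjusted p = 0.136). It passed, at -0.25 and adjusted p from 0.0199 to 0.0351, without contralateral replicate 2 or 3 at 3 h, contralateral replicate 3 at 24 h, ipsilateral replicate 1 at 3 h or ipsilateral replicate 1 at 6 h. Against sham cortex at 24 h it passed with only the compared groups (-0.30, adjusted p = 0.0384).

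**Figure D4:**
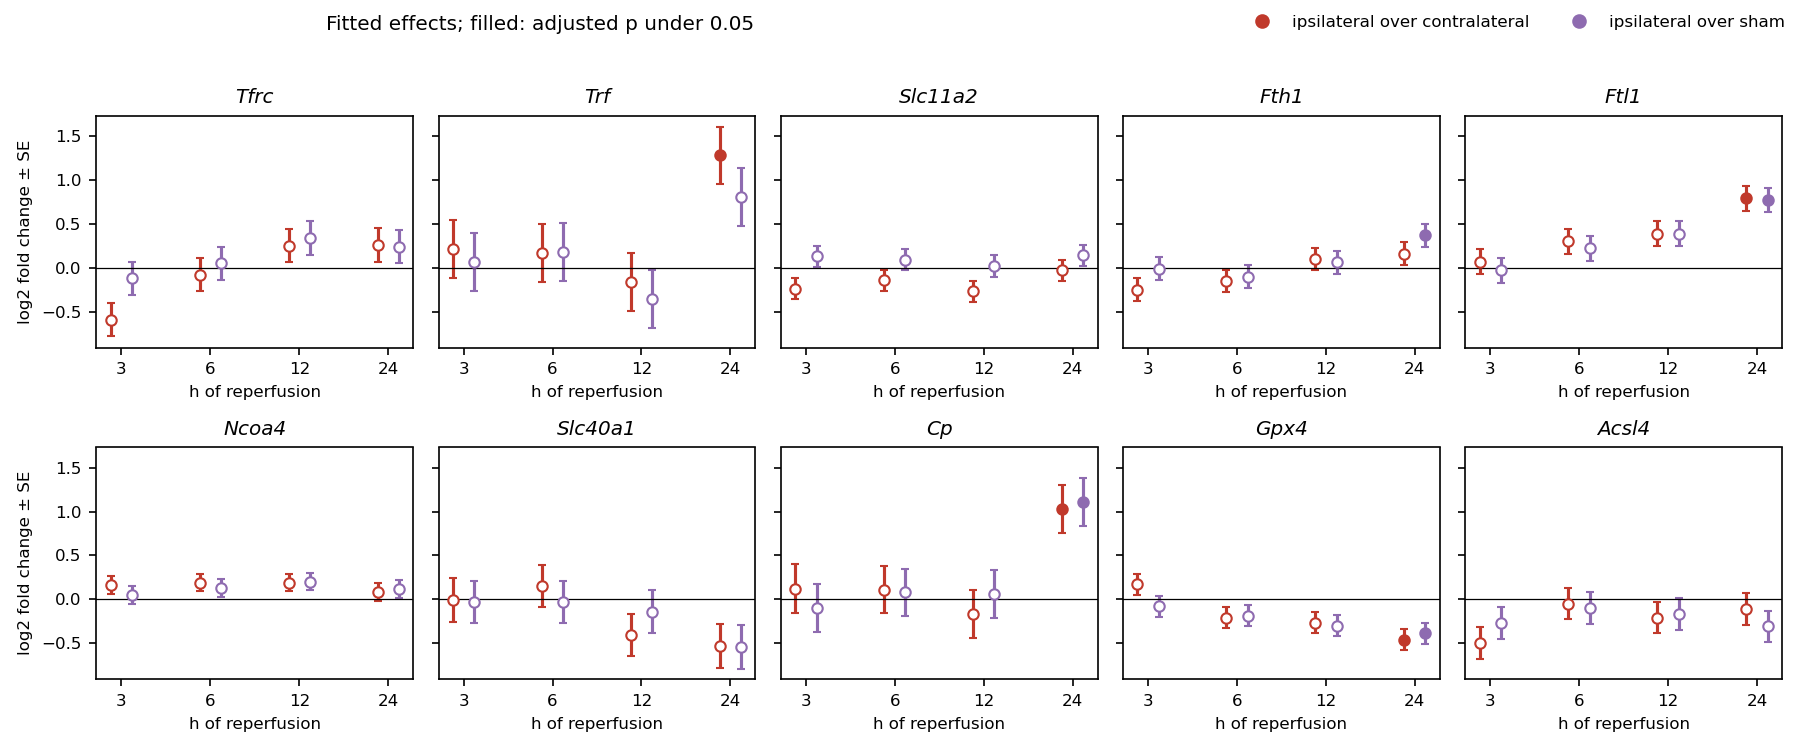
Fitted log2 fold changes (points) with SE (bars) of each gene against hours of reperfusion, for ipsilateral over contralateral cortex (left of each pair) and ipsilateral over sham cortex (right of each pair); filled points have an adjusted p under 0.05. The filled points are at 24 h only, for Ftl1, Cp and Gpx4 in both comparisons, for Trf over contralateral cortex and for Fth1 over sham cortex.

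Over the time course, 4 of the 10 genes were called in the mean of the 4 ipsilateral against contralateral effects, with Ftl1 and Ncoa4 higher (17.7% of all genes were called higher) and Gpx4 and Slc11a2 lower (15.3%). The mean effect of Trf (0.37, adjusted p = 0.0868) passed without ipsilateral replicate 3 at 24 h (0.47, adjusted p = 0.004), without ipsilateral replicate 3 at 3 h (0.44, adjusted p = 0.039) and with DESeq2, and that of Cp (0.27, adjusted p = 0.133) passed without ipsilateral replicate 3 at 24 h (0.34, adjusted p = 0.0267). These mean effects were 0.27 for Trf (adjusted p = 0.193) and 0.16 for Cp (adjusted p = 0.301) without ipsilateral replicate 1 at 24 h. The sides did not overlap for 2, 4, 5 and 4 of the 10 genes at 3, 6, 12 and 24 h, beside 11.2%, 32.8%, 32.6% and 34.4% of all genes. Ipsilateral and sham libraries did not overlap for 1, 0, 4 and 5 of the 10, beside 17.6%, 30.8%, 34.2% and 40.1% of all genes. The joint test over all 4 times asked whether the effect differs between them. It called none of the 10, beside 1.34% of all genes. An unadjusted p under 0.05 was found there for 5 of the 10, beside 3005 of all 18087 genes. DESeq2 called 0 of the 10 there and 763 of all genes. That joint test passed for Trf, Ftl1 and Cp without ipsilateral replicate 3 at 24 h (adjusted p = 0.012, 0.0431 and 0.0457) and for Gpx4 without contralateral replicate 2 at 3 h (adjusted p = 0.0437). Without ipsilateral replicate 1 at 24 h it gave adjusted p = 0.536, 0.379 and 0.532 for Trf, Ftl1 and Cp, and without contralateral replicate 1 at 3 h 0.216 for Gpx4. The narrower contrast of 24 h minus 3 h was called for Ftl1 (0.72 ± 0.20, adjusted p = 0.0431) and Gpx4 (-0.63 ± 0.17, adjusted p = 0.0454), where 3.32% of all genes were called (1.61% higher and 1.71% lower). Both calls were lost with only the compared groups (adjusted p = 0.0628 and 0.0646), without both libraries that stand apart (0.52, adjusted p = 0.0782, and -0.50, adjusted p = 0.08) and without ipsilateral replicate 1 at 24 h (0.46, adjusted p = 0.134, and -0.65, adjusted p = 0.0677). With other single libraries left out, the Ftl1 call was lost in 6 more fits and the Gpx4 call in 7 more.

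Markers of other cells moved at 24 h together with these genes. Of 8 tested monocyte and macrophage markers 3 rose, and the summed level of the list was 117, 52.1 and 22.7 CPM in ipsilateral replicates 1, 2 and 3, against 27.2, 15.9 and 12.3 CPM in contralateral cortex. Of 8 neutrophil markers 5 were tested and 1 rose, with sums of 13.4, 4.97 and 1.66 CPM ipsilaterally against 0.913, 1.55 and 2.07 CPM contralaterally. Of 9 endothelial markers 4 rose and 1 fell, with sums of 370, 244 and 199 CPM ipsilaterally against 218, 220 and 206 CPM contralaterally. In these 3 lists ipsilateral replicate 1 was highest and replicate 3 lowest, as it was for Ftl1, Fth1, Cp and Trf. This order was not particular to lists with rising markers. The sums were 192, 164 and 120 CPM for resting microglia, where no marker rose, and 612, 356 and 316 CPM for striatal neurons. Mature oligodendrocyte, choroid plexus and meningeal lists had this order too, while neuron and astrocyte lists did not. Red cell markers had the same order, with 2 of 6 rising and sums of 91.1, 65.3 and 44.6 CPM ipsilaterally against 46.4, 55 and 54.3 CPM contralaterally. Against sham cortex, whose red cell sums were 92.1, 79.9 and 98.9 CPM, 0 of these 6 rose and 1 fell. Against sham at 24 h, 3 monocyte and macrophage, 3 neutrophil and 4 endothelial markers rose.

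Neuronal markers had the opposite direction, as Gpx4 did: 6 of 10 fell, and their sum was 3499 to 3989 CPM ipsilaterally against 5299 to 5623 CPM contralaterally. Of 8 resting microglia markers 4 fell. Of 9 astrocyte markers 2 rose and 2 fell, with sums of 4019 to 5581 CPM ipsilaterally against 3616 to 4369 CPM contralaterally. No tested marker of these lists was at 0 in all 3 libraries of either side. The part of these cell types in the changes of the 10 genes was not tested.

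Of 92 further genes of iron handling and ferroptosis on 4 lists, 90 have a row and 87 were tested. In ipsilateral against contralateral cortex 2 rose and 0 fell at 3 h, 11 rose and 2 fell at 6 h, 18 rose and 5 fell at 12 h, and 28 rose and 8 fell at 24 h. Over all tested genes the shares higher and lower were 0.232% and 0.0166% at 3 h, 5.85% and 2.14% at 6 h, and 7.94% and 4.3% at 12 h. The 36 genes called at 24 h are 41.4% of those tested, beside 19.1% of all genes. The median log2 fold change over the 87 genes at 24 h was 0.14, beside 0.03 over all genes. Without ipsilateral replicate 1 at 12 h, the count of that time was 12 in place of 23. Over all genes it was 889 in place of 2214.

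Of 21 further tested genes of uptake, storage and export, 7 rose, 2 fell and 12 did not pass at 24 h, so that 42.9% were called, beside 19.1% of all genes. Besides Steap4, the genes that rose were the endosomal ferrireductase Steap3 (log2 fold change 1.55), the ferritin receptor Scara5 (2.46), the siderophore-binding lipocalin Lcn2 (2.65), the metal importer Slc39a14 (0.72), the heme exporter Mfsd7b, whose other symbol is Flvcr1 (0.45), and Hpx. Steap4, which reduces ferric iron, averaged 3.51 ± 1.73 CPM ipsilaterally at 24 h and 0.541 ± 0.208 CPM contralaterally (SD, n = 3 each), a difference of 2.69 ± 0.62 (SE; adjusted p = 0.00365). Hpx, encoding the heme scavenger hemopexin, was higher at 6, 12 and 24 h, and at 12 h averaged 2.07 ± 0.581 CPM ipsilaterally and 0.504 ± 0.0563 CPM contralaterally (2.03 ± 0.41, adjusted p = 0.0016). At 24 h these 2 transcripts had 61 to 410 counts summed over the 3 libraries of a side. The genes that fell were Slc22a17, the lipocalin receptor, with 218 ± 7.59 CPM ipsilaterally and 320 ± 19.9 CPM contralaterally at 24 h (-0.55 ± 0.11, adjusted p = 0.000987), and the heme transporter Slc48a1 (-0.40 ± 0.10, adjusted p = 0.00585). Ltf on this list is also a neutrophil marker and was below the filter, and Steap1 is also on the choroid plexus list.

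Genes of iron sensing, heme and mitochondrial iron gave 3 rises, 2 falls and 13 that did not pass among 18 at 24 h, so that 27.8% were called, beside 19.1% of all genes. Hmox1, the inducible heme oxygenase that frees iron from heme, averaged 38.8 ± 14.4 CPM ipsilaterally at 24 h and 2.4 ± 0.506 CPM contralaterally, a 16.1-fold rise (4.01 ± 0.33, adjusted p = 1.81e-07). At 6 h it was 6.83-fold higher (adjusted p = 6.07e-06). Bach1, the heme-sensing repressor of Hmox1, was 1.83-fold, 1.51-fold and 1.72-fold higher at 6, 12 and 24 h (adjusted p = 0.000233, 0.00659 and 0.000434). Hspa9, a mitochondrial chaperone used in iron-sulfur cluster assembly, rose 1.87-fold at 12 h and 1.59-fold at 24 h (adjusted p = 0.000102 and 0.00163). Fech, which inserts iron into heme, fell at 24 h to 28.1 ± 0.894 CPM ipsilaterally, against 36.6 ± 0.826 CPM contralaterally (-0.38 ± 0.10, adjusted p = 0.00708), as did Hmox2 (-0.36, adjusted p = 0.0252).

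On the list of ferroptosis defence, which held Gpx4's partners and the parallel systems, 9 of 25 rose and 1 fell at 24 h (40% called, beside 19.1% of all genes). Cystine import was among the rises, with Slc7a11 at 1.50 (adjusted p = 0.00097) and its partner Slc3a2 at 0.51 (adjusted p = 0.00338), as were the glutathione synthesis gene Gclm (0.52, adjusted p = 0.00949) and Gch1, which makes tetrahydrobiopterin (1.54, adjusted p = 0.00412). Nfe2l2, the transcription factor NRF2, passed at 24 h (0.89, adjusted p = 0.00115) and not at 3, 6 or 12 h (0.16 to 0.30, adjusted p from 0.463 to 0.635). Txnrd1, a selenoenzyme like Gpx4, averaged 83.6 ± 7.17 CPM ipsilaterally at 24 h and 35.4 ± 2.27 CPM contralaterally (1.24 ± 0.12, adjusted p = 1.81e-07). Gpx4 and Txnrd1 thus had opposite signs in the same libraries. Hspb1, a small heat shock protein, was 11.1-fold higher at 6 h and 8.36-fold higher at 24 h (adjusted p = 4.8e-08 and 2.99e-07), and the chaperone Hspa5 was 2.08-fold higher at 24 h (adjusted p = 0.00122). The mitochondrial enzyme Dhodh was the gene that fell, at 6, 12 and 24 h, with 9.4 ± 0.591 CPM ipsilaterally and 12.7 ± 1.25 CPM contralaterally at 24 h (-0.44 ± 0.14, adjusted p = 0.0245).

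On the list of ferroptosis promotion and response, to which Acsl4 belongs by function, 9 of 23 rose and 3 fell at 24 h (52.2% called, beside 19.1%). Ptgs2, a prostaglandin synthase whose mRNA is used as a ferroptosis marker, averaged 53.8 ± 8.82 CPM ipsilaterally at 24 h and 20.2 ± 2.47 CPM contralaterally (1.41 ± 0.21, adjusted p = 6.44e-05). Chac1, which degrades glutathione, was 4.9-fold, 6.24-fold and 4.54-fold higher at 6, 12 and 24 h (adjusted p = 8.02e-06, 1.3e-06 and 1.67e-05). The stress transcription factors Atf3 and Atf4 were 17.3-fold and 1.55-fold higher at 24 h (adjusted p = 2.27e-05 and 0.00721). Cybb, the catalytic subunit of the phagocyte NADPH oxidase, was 3.60 log2 units higher at 24 h (adjusted p = 0.000126), with -0.15 to 0.68 and no call at 3, 6 and 12 h. The lipoxygenase Alox12b (-0.86), the mitochondrial channel Vdac2 (-0.34) and the glutaminase Gls2 (-0.46) fell at 24 h. None of these list counts was tested against other genes.

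**Figure D5:**
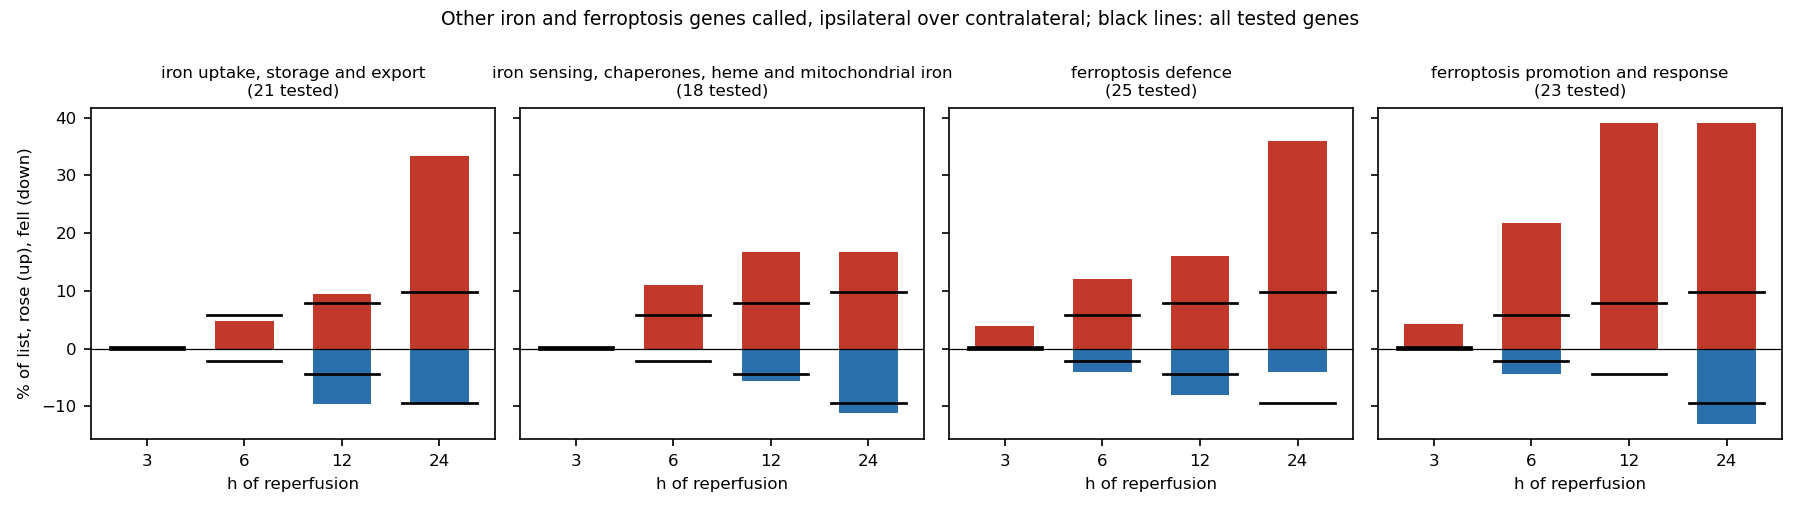
Percentage of the tested genes of each list (members of the 10 left out) that rose (bars upward) or fell (bars downward) in ipsilateral against contralateral cortex at an adjusted p under 0.05, by hours of reperfusion; black lines are the same percentages over all tested genes. At 24 h the 4 lists hold 28 rises and 8 falls among 87 genes.

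Across the 27 libraries, the transcripts most like each of the 4 genes called in the mean effect were named by Pearson's r of log2 CPM among 10899 genes, as a description. The libraries share time and side, so genes that move with the occlusion resemble each other. Ftl1 was most like Adam8, a metalloprotease (r = 0.94), the lipid droplet protein gene Plin2 (0.93) and the TNF receptor gene Tnfrsf1a (0.93). Gpx4 was most like Pfdn5 (0.95), Eri3 (0.94) and the pyruvate kinase gene Pkm (0.93). For Ncoa4 the highest were Lonrf1 (0.84) and the nuclear pore genes Nup98 (0.83) and Nupl1 (0.82), and for Slc11a2 Tmbim4 (0.82), 2610524H06Rik (0.80) and Pla2g7 (0.80).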

How the data were processed

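RNA-seq was measured in 27 libraries. The authors deposited 1 table of whole-number counts per gene with 22340 rows and 27 columns. Per the submitters' processing notes, STAR 2.5.0a, featureCounts 1.4.3-p1, edgeR and mm10 were used; nothing in the sources used here gives the annotation, the strand setting or the treatment of multi-mapped reads.

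From these counts, genes were filtered with filterByExpr of edgeR 4.0.16 (minimum count 10, minimum total count 15; 18087 kept) and normalized by TMM. All 27 libraries were fitted in 1 robust quasi-likelihood model with a mean per group (biological coefficient of variation 0.175; degrees of freedom 18 residual and, by median, 10.4 prior). P-values were adjusted by Benjamini-Hochberg over all tested genes, with a threshold of 0.05, and SE derive from the F statistic. They measure the spread between libraries of 3 surgery days. Log2 CPM for likeness used a prior count of 2. Gene positions, lengths and untranslated regions are from GENCODE M21, and 3 older symbols were matched through RefSeq. The library check sets the GC-richest 10% of genes against the GC-poorest 10%.

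The 10 genes, the 4 pathway lists, the 11 cell type lists and the tests were chosen with earlier results of these data known. From each pathway list the 4 genes with the smallest p in the joint test over times or the mean effect were named by rule (Hpx, Slc22a17, Steap4, Slc48a1; Hmox1, Bach1, Hspa9, Fech; Hspb1, Txnrd1, Hspa5, Dhodh; Atf3, Chac1, Atf4, Ptgs2). Other list genes named were chosen after their values were seen, and so was the ferritin ratio. Likeness took the 3 closest genes with a mean of at least 5 CPM.

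The study's design text says that a replicate number marks a day of surgery, so the numbers pair the samples and a replicate block was an alternative. Deviations from group means correlated at a mean of 0.0475 in the 108 pairs of 1 number across groups, at 0.0888 in the 12 of these that pair the hemispheres, and at -0.0237 in 216 pairs of unlike numbers. Further alternatives were RLE size factors, no filter, abundant RNAs left out, only the groups compared, DESeq2 1.42.0, each library left out, and 2 libraries that stand apart left out. Results with 1 library left out are given only for the comparisons that use its group.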

Additional observations from a re-analysis of the deposited data

Results flagged for a closer look

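For 2 of the 10 genes the ipsilateral against contralateral effect at 24 h differed from that at 3 h by a test of the difference itself (edgeR, Benjamini-Hochberg over all tested genes). The Ftl1 effect was higher at 24 h by 0.72 ± 0.20 on the log2 scale (adjusted p = 0.0431), with single-time effects of 0.79 at 24 h and 0.07 at 3 h. The Gpx4 effect differed by -0.63 ± 0.17 (adjusted p = 0.0454), with -0.46 at 24 h and 0.17 at 3 h. Both calls sit close to the threshold, and 3.32% of all genes were called by this test. The joint test over all 4 times called neither gene (adjusted p = 0.157 for Ftl1 and 0.16 for Gpx4). Both calls were lost with only the compared groups (adjusted p = 0.0628 and 0.0646) and without both libraries that stand apart (0.0782 and 0.08). With 1 library of the compared groups left out, the Ftl1 value ran from 0.46 to 0.86 and its adjusted p from 0.0112 to 0.134. The Gpx4 value ran from -0.80 to -0.47 and its adjusted p from 0.0105 to 0.126. Without contralateral replicate 1 at 3 h, where Ftl1 and Gpx4 had their lowest levels, the Ftl1 difference was 0.77 (adjusted p = 0.033) and that of Gpx4 -0.47 (adjusted p = 0.0723). Without ipsilateral replicate 1 at 24 h they were 0.46 (adjusted p = 0.134) and -0.65 (adjusted p = 0.0677).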

How the results depend on the processing

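No call of the 10 genes changed sign, in the comparison in which it was made, under any alternative run. Of 2370 recomputed single-gene values, 2289 kept their side of the threshold, 42 lost a call and 39 gained it. Most of the 2370 belong to results without a call in the full fit, which had no call to lose. The share that kept their side is therefore no measure of how stable the calls are. With the 2 libraries that stand apart left out, the genes called of 10 were 1 at 6 h, 2 at 12 h (Ftl1 and Slc11a2) and 0 for 24 h minus 3 h in ipsilateral against contralateral cortex, and 3 at 12 h against sham cortex (Tfrc, Ftl1 and Gpx4). Over all genes that setting called 2455 at 6 h and 3468 at 12 h, where the full fit called 1445 and 2214. It called 3121 at 12 h against sham, where the full fit called 1864. With only the compared groups fitted, the counts for the 10 genes were 1 at 12 h and 2 at 24 h. They were 0 for 24 h minus 3 h and 3 at 12 h against sham. The counts over all genes were 2665, 2433, 343 and 3034 in the same order. DESeq2 called 1 of the 10 at 12 h in ipsilateral against contralateral and 1 in ipsilateral against sham cortex. Over all genes it called 2665 and 2293. Without the filter 1 of the 10 was called for 24 h minus 3 h, beside 529 of all genes. The cause was not tested. Left out in turn, libraries of the compared groups gave 0 to 1 calls at 3 h, 2 to 4 at 24 h and 2 to 4 at 24 h against sham. Over all genes these fits gave 20 to 132, 2231 to 2995 and 2464 to 3219 calls. For the 10 genes they gave 3 to 6 for the mean effect, 0 to 3 for the joint test over times and 0 to 3 for 24 h minus 3 h. All genes gave 5283 to 6845, 103 to 475 and 232 to 1113 there. The count of other pathway genes ran from 12 (without ipsilateral replicate 1) to 26 at 12 h and from 28 to 33 at 24 h. Over all genes the counts ran from 889 (without the same library) to 2406 and from 2231 to 2995. With the replicate block, 4 genes were called at 24 h in either comparison, 5 in the mean effect and 3 for 24 h minus 3 h. Over all genes the block gave 3825 calls at 24 h and 4379 against sham cortex, where the full fit gave 3455 and 4008. It gave 6338 in the mean effect and 901 for 24 h minus 3 h, beside 5967 and 600. Beyond Acsl4 in the mean effect and Tfrc for 24 h minus 3 h, the block changed no call of the 10 genes. Counting precision is lowest for Slc40a1 and Trf, with 91 to 292 and 123 to 556 counts a library.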
